A study of Mus musculus with 15 samples.

Results

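The p53 pathway and the inhibitors of cyclin-dependent kinases were followed in mouse pancreas through 9 genes chosen by name, 9 of the 49585 genes listed in the larger count tables. They were Trp53, which encodes the tumour suppressor p53, and Mdm2, which encodes the ubiquitin ligase that marks p53 for degradation and is itself a p53 target. Cdkn1a (p21) and Cdkn1b (p27) encode the CIP/KIP inhibitors, Cdkn2a (p16 and ARF) and Cdkn2b (p15) the INK4 locus, and Ccng1 (cyclin G1), Eda2r (a TNF receptor family member that binds ectodysplasin A2) and Gdf15 (a secreted stress cytokine) are further p53 targets. All 9 were listed in the tables of all 15 libraries.

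Stabilised p53 binds a short DNA element near its targets and raises their transcription. p21 then holds cyclin-dependent kinases inactive, while Mdm2 closes a negative feedback loop on p53. In the pancreas, the INK4 locus and p53 are known as barriers to tumour growth, and loss of these barriers accompanies progression to ductal carcinoma.

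The study asked how HPK1, a kinase encoded by Map4k1, and its kinase-dead form M46 alter pancreatitis and pancreatic tumour development. Bulk RNA-Seq was made from pancreas of C57BL/6 mice, with RNA of 3 mice pooled for each library. MC libraries (n = 3) carried the M46 transgene with Bac-cre and were compared with libraries labelled B control (MC control, n = 3), all from mice of 2 months. Libraries labelled HC (n = 3, HPK1 transgene with Bac-cre) were compared with libraries labelled WT (HC control, n = 2), all at 4 months. The design text calls these controls B (Bac-cre), so whether the HC comparison also carries Bac-cre is not settled by the records. KMC libraries (n = 2, M46 and Bac-cre on a tumour-prone background, 9 months) were compared with KC libraries (n = 2, Bac-cre on the same background without M46, 15 months). Bac-cre is a tamoxifen-inducible Cre under the acinar elastase promoter, so each transgene was designed for acinar cells, whereas the libraries held the whole tissue. Mice of the MC and HC comparisons and their controls had received cerulein, a secretagogue that causes pancreatitis, and none is named for KC or KMC. The study's methods describe the KC and KMC tissue as tumours and the labels as pancreas. By the labels, the MC table came from a standard Illumina protocol and the other libraries from a stranded mRNA kit. The study instead names a single Illumina stranded protocol, and gives younger cerulein mice than the HC labels do. The labels were followed here for kit and age.

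Total counts ran from 29766575 in MC control 2 to 38745907 in KMC 2. Levels below are counts per 1e6 (CPM) after TMM scaling, edgeR's correction for composition, made within each of the 3 tables. A level near the floor of 3 counts, between 0.0357 CPM in KMC 2 and 0.204 CPM in KC 1, is limited by counting error. Because whole tissue was sequenced, fewer cells of a type and less RNA per cell cannot be told apart in any result that follows.

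Several libraries stood apart or went against their labels. Map4k1 measured 8.32, 6.79 and 7.51 CPM in MC against 3.8, 4.14 and 2.34 CPM in MC control, and 5.92 and 11.4 CPM in KMC against 0.545 and 1.55 CPM in KC. In the libraries labelled HC it measured 7.33, 5.05 and 7.93 CPM, below the 15.4 and 11.5 CPM of their controls. Map4k1 was thus higher in both M46 groups and went against the label in HC, where a higher level was looked for, although the counts do not say whether transgene reads were assigned to the mouse gene. It did not pass edgeR's test in any comparison, with an adjusted p of 0.110 in MC, 0.145 in HC and 0.0796 in KMC. Leukocyte markers, whose sums are given below, moved in the same direction as Map4k1 in all 3 comparisons, and their part in it was not tested. Xist, made from the inactive X chromosome of females, measured 0.761 CPM in HC 3 and 579 to 929 CPM in the other 4 libraries of that table. It measured 0.681 and 0.348 CPM in KC and 406 and 306 CPM in KMC, while the Y-linked Ddx3y measured 10.7 and 17.3 CPM in KC and had 0 counts in KMC, which allows up to 0.0737 CPM in KMC 1 and 0.0357 CPM in KMC 2. Sex, age and genotype therefore cannot be told apart between KMC and KC. Neither Xist nor Ddx3y is listed in the MC table.

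Acinar genes were present in every library, with at least 27 of the 28 acinar markers (27 listed in the MC table) above 0. Ctrb1, the chymotrypsinogen gene, was the most abundant of them. Presence alone does not say how much acinar tissue a library held. The share of all counts held by the acinar markers differed widely between tables. It was 50%, 41.6% and 55.3% in MC control, 45.6%, 36.8% and 36.4% in MC, but 8.61% and 6.79% in HC control and 6.72%, 8.89% and 5.70% in HC. In KC it was 68.2% and 59.7%, and in KMC 48.4% and 24.5%. Cela3a, in HC control 2, was the only acinar marker at 0.

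Per kilobase of exon, Ccng1 was the most abundant of the 9 genes in all 6 groups, from 26.9 ± 9.23 CPM per kb in KMC (SD, n = 2) to 98.7 ± 17.0 CPM per kb in MC (SD, n = 3). Cdkn1a came next in 4 groups, with 40.1 ± 19.6 CPM per kb in MC control, 38.7 ± 3.64 in MC, 28.7 ± 13 in KC and 11.4 ± 1.77 in KMC. In HC and HC control Cdkn2b held the place after Ccng1, at 50.8 ± 2.54 and 51.8 ± 4.18 CPM per kb. The range of Ccng1 did not meet that of the next gene in any group, whereas Cdkn1a and Cdkn2b overlapped in HC and in KMC. At the low end by group mean stood Cdkn2a, last in MC, MC control, KC and KMC (where its range overlapped that of Gdf15), and Gdf15, last in HC and HC control at 1.03 CPM per kb. Neighbours elsewhere in the order often overlapped, as Mdm2 and Trp53 did in MC and MC control and Trp53 and Cdkn1b in HC.

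**Figure D1:**
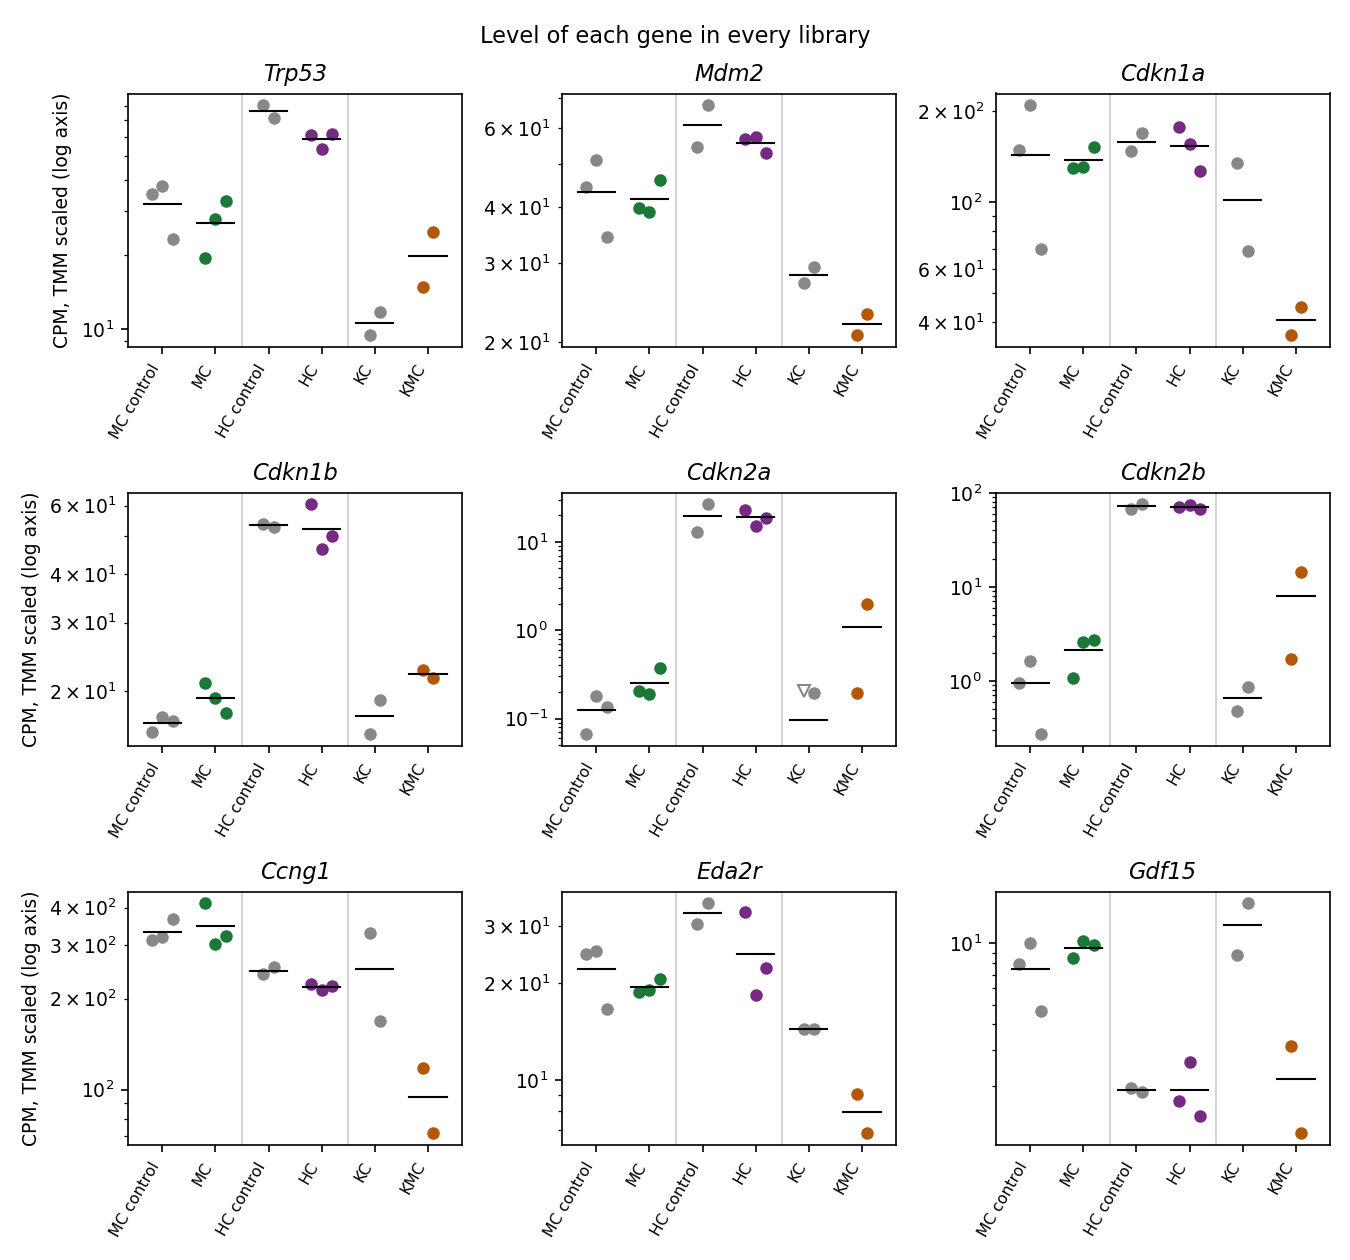
Level of the 9 genes in each of the 15 libraries, as CPM after TMM scaling on a log axis, with a point for each library, a bar at the group mean, grey for controls and an open triangle at the floor of 3 counts where a library had 0 counts. Each table was scaled on its own, so levels are to be compared within the panels' 3 sections. Cdkn2a and Cdkn2b stood far higher in both HC groups than elsewhere. In KMC Gdf15, Mdm2, Cdkn1a, Ccng1 and Eda2r lay below KC. All of these but Gdf15 had fold changes above 0 with library size alone.

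Trp53 and Mdm2 in MC lay close to their control. Trp53 (ENSMUSG00000059552, chr11:69580359-69591873 on GRCm38) measured 19.4, 27.9 and 33.1 CPM in MC against 35.3, 37.8 and 23.2 CPM in MC control. Mdm2 measured 39.9, 39.2 and 46 CPM in MC against 44.5, 51.0 and 34.4 CPM in the controls. For both genes the groups overlapped, and MC control 3 was the lowest control. The log2 fold changes were -0.26 ± 0.24 (SE) for Trp53 and -0.06 ± 0.16 for Mdm2 (n = 3 against 3), with edgeR adjusted p of 0.602 and 0.872. With library size alone as the scaling they became 0.04 and 0.23, while the median of all genes moved from -0.02 to 0.29.

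Among the inhibitors, Cdkn1b was the single gene of the 8 tested whose MC and MC control libraries did not overlap, as was so for 20.7% of all genes. It measured 21, 19.1 and 17.6 CPM in MC and 15.7, 17.1 and 16.7 CPM in MC control, a log2 fold change of 0.22 ± 0.12 with an edgeR adjusted p of 0.407. Cdkn2b was low, with 32, 111 and 109 counts in MC against 29, 54 and 6 in MC control, or 1.08, 2.61 and 2.69 CPM against 0.959, 1.61 and 0.270 CPM. MC 1 lay inside the control range, and the fold change of 1.14 ± 0.59 had an edgeR adjusted p of 0.396 and was 0.75 without MC control 3 and 1.74 without MC control 2. Cdkn2a had 6, 8 and 15 counts in MC and 2, 6 and 3 in MC control and did not pass the filter on low counts, although its lowest MC library (0.188 CPM) was just above its highest control (0.179 CPM). Cdkn1a ranged from 130 to 152 CPM in MC and from 70.1 to 209 CPM in MC control, a spread in the controls wide enough to hold all 3 MC libraries.

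The 3 remaining targets overlapped as well. Ccng1 measured 414, 303 and 323 CPM in MC against 314, 320 and 366 CPM in MC control. Eda2r measured 18.8, 19.0 and 20.5 CPM against 24.7, 25.2 and 16.7 CPM, and Gdf15 8.49, 10.2 and 9.78 CPM against 7.87, 9.97 and 4.67 CPM. In all 3 genes the group difference was smaller than the spread among controls.

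Over the 8 members tested in MC, 0 were called at an adjusted p of at most 0.05 with a log2 fold change of at least 1 in size, against 0% of all 13902 genes tested by edgeR. At an unadjusted p under 0.05 there were 0 of 8, against 14.7% of all genes, and 1 of 8 (Cdkn1b) did not overlap between groups, against 20.7% of all genes and 10% of random splits of 3 against 3. DESeq2 called 0 of 9 members and 3.19% of all genes. The count of genes called rested on single libraries: edgeR called 718 genes without MC control 2 and 171 without MC 1, none of them among the 9.

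Several lists of cell cycle genes around the members held genes at an unadjusted p under 0.05 in MC, although edgeR called no gene of these lists and 14.7% of all genes reached that level. Of the 4 other CDK inhibitors, 3 reached an unadjusted p under 0.05 and all were higher: Cdkn2d (p19, an INK4 inhibitor) at a log2 fold change of 0.74, Cdkn2c (p18, likewise INK4) at 0.74 and Cdkn3, a phosphatase that acts on CDK2, at 0.99. Of 15 proliferation genes 10 did so, all higher, among them Top2a at 0.89, Ccna2 at 1.01 and Bub1 at 1.02, with a list median of 0.86 beside -0.02 for all genes. Of 8 E2F factors 2 were higher at that level (E2f8 at 0.90 and E2f3 at 0.60), and of 11 G1 cyclins, CDKs and RB family genes 1 was (Ccnd1, cyclin D1, at 0.80). Leukocyte markers were higher too, 5 of 6 at that level, and summed to 237, 261 and 349 CPM in MC against 123, 201 and 67.1 CPM in MC control, all 6 above 0. The adipocyte (8 of 8), B cell (5 of 5 tested) and T cell (8 of 8 tested) markers were higher at that level as well, with medians of 2.97, 3.88 and 1.84 beside 1.2 for the leukocyte markers. MC 1 stood apart in the B cell sum, at 69.9 CPM beside 15.6 and 2.89 CPM in MC 2 and MC 3 and 1.21 to 2.21 CPM in the controls, and was highest in the adipocyte sum, at 144 CPM beside 86.6 and 57.6 CPM, with 38.6 to 45.1 CPM in the controls. The part of these cell types in the proliferation genes was not tested.

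The p53 lists held few genes at an unadjusted p under 0.05 in MC. Of 21 p53 targets for arrest and repair 1 was lower at that level (Ddit4, an inhibitor of mTORC1 signalling, at -0.53), and of 11 p53 targets for cell death 1 was lower (Perp, a desmosomal protein, at -0.36). None of the 10 tested p53 regulators, of 12 in the list, reached that level. The medians of these lists were -0.16, -0.07 and -0.09 and all turned positive with library size alone, to 0.12, 0.21 and 0.25, below the 0.29 of all genes. Of 8 integrated stress response genes 3 were lower, namely Atf4 at -0.54, Chac1 at -0.60 and Trib3 at -0.84, and all 8 were below 0 with a median of -0.57 (-0.22 and 1 of 8 above 0 with library size alone). Acinar markers had fold changes below 0 in 23 of 27, with a median of -0.55. At an unadjusted p under 0.05, 0 of them were lower and 1 was higher. Their part in the stress response genes was not tested. Among 7 regulators of the INK4 locus Ets1 was higher at 0.61 and Ets2 lower at -0.42, and among 11 genes for the turnover of p21 and p27 Ddb1 was lower at -0.33, which library size alone brought to 0.00095.

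None of the 9 genes passed the test in the libraries labelled HC. Trp53, the one at an unadjusted p under 0.05, measured 61.1, 53.7 and 61.4 CPM in HC against 80.6 and 71.3 CPM in HC control, and the groups did not overlap. The log2 fold change was -0.37 ± 0.11 (SE, n = 3 against 2) with an edgeR adjusted p of 0.192, and stayed negative under every scaling tried, from -0.42 with the housekeeping genes to -0.37. With the housekeeping genes 0 of the 9 genes reached an unadjusted p under 0.05. The same held in 1 fit over the 9 libraries of the HC and KMC tables. Mdm2 measured 57.0, 57.3 and 52.8 CPM against 54.6 and 67.7 CPM, so that HC control 1 lay inside the HC range.

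Both genes of the INK4 locus and both CIP/KIP genes overlapped between HC and its controls. Cdkn2a (chr4:89274471-89294653) measured 23.1, 15.2 and 18.8 CPM in HC against 12.9 and 26.8 CPM, and the controls enclosed all 3 HC libraries. Cdkn2b (chr4:89306299-89311039), separated from Cdkn2a by 11645 bases, measured 70.1, 74.4 and 67.4 CPM against 67.9 and 76.1 CPM. Its log2 fold change was -0.03 ± 0.10. Cdkn1a ranged from 126 to 177 CPM in HC and from 147 to 169 CPM in HC control, and Cdkn1b from 46.3 to 60.6 CPM and from 52.9 to 53.8 CPM.

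The INK4 locus stood out by its level in this table. Cdkn2b reached at most 2.69 CPM in the MC table and 14.4 CPM in the KC and KMC table, and Cdkn2a at most 0.370 and 1.99 CPM. In the HC table no library was under 67.4 CPM for Cdkn2b or 12.9 CPM for Cdkn2a, WT controls included. Trp53 (53.7 to 80.6 CPM), Cdkn1b (46.3 to 60.6 CPM) and Mdm2 (52.8 to 67.7 CPM) were likewise above all libraries of the other tables. There they reached 37.8, 22.7 and 51.0 CPM. Gdf15 (1.43 to 2.61 CPM) was below every library of MC and MC control. The same libraries held the low acinar shares given above and the high levels of other tissue elements. All 10 ductal markers were above 0 and summed to 5045 and 5384 CPM in HC control and 5666 to 6959 CPM in HC, against 1165 to 1992 CPM in the MC table. These tables were scaled separately. By the labels the MC table differs from the HC table in kit and age. The KC and KMC table differs from the HC table in age, background and named cerulein treatment. The difference between the tables was therefore not tested, and neither was the part of the tissue's make-up in it.

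Of the p53 targets, Ccng1 measured 223, 213 and 219 CPM in HC against 241 and 254 CPM, without overlap, at a log2 fold change of -0.18 ± 0.10 and an edgeR adjusted p of 0.444. Eda2r measured 33.2, 18.4 and 22.2 CPM against 30.6 and 35.5 CPM. HC 1 lay between the controls, and the fold change of -0.42 ± 0.25 became -0.70 without it. Gdf15 measured 1.68, 2.61 and 1.43 CPM against 1.95 and 1.87 CPM and overlapped.

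All 9 members were tested in HC and all 9 fold changes were below 0, from -0.42 for Eda2r to -0.0036 for Gdf15, with a median of -0.06 beside 0.00 for all genes, and 6 of the 9 turned in sign when 1 library was left out or replicate numbers were blocked. edgeR called 0 of 9 against 0.565% of 18407 genes, and DESeq2 called 0 of 9 against 2.78%. At an unadjusted p under 0.05 there was 1 of 9 (Trp53) against 15.9%, and 2 of 9 (Trp53 and Ccng1) did not overlap against 33.5% (20% of random splits), so neither share was above that of all genes. The 104 genes called fell to 0 without HC 2, HC control 1 or HC control 2 and to 3 without HC 3, the library with Y-linked RNA, and were 379 without HC 1.

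Around the members, proliferation genes were the pathway list with the most genes at an unadjusted p under 0.05 in HC, a level that 15.9% of all genes reached, so that counts of 1 or 2 in the other lists are near that share. Of its 15 genes 9 were lower and 2 higher, and the list median was -0.82. Foxm1, a transcription factor of the G2/M programme, was lower at -1.25 ± 0.23 (edgeR adjusted p = 0.0706), but Mcm6, a subunit of the replicative helicase, was called higher at 1.32 ± 0.11 (edgeR adjusted p = 0.0336), and Plk1, a mitotic kinase, was at 0.93. With the housekeeping genes Mcm6 was at 1.27 and was not called (edgeR adjusted p = 0.0591). DESeq2 called 2 proliferation genes lower and 1 higher, and 1 E2F factor lower. Of 8 E2F factors 3 were lower (E2f8 at -1.19, E2f7 at -1.03 and E2f3 at -0.41), and of 11 G1 genes 2 were (Rbl1 at -0.46 and Cdk4 at -0.24). Of 21 p53 targets for arrest and repair 3 were lower, namely Trp53inp1 at -0.72, Psrc1 at -0.92 and Zmat3, an RNA-binding p53 target, at -0.42, and 1 was higher. None of 11 cell death targets and none of 10 tested p53 regulators reached that level. Dtl, which targets p21 for degradation in S phase, was lower at -1.0 as the single one of 11 turnover genes, Chac1 at -0.95 as the single one of 7 tested stress response genes, and of 7 INK4 regulators Ets1 was lower at -0.60 and Cbx7, a Polycomb protein that silences the locus, higher at 0.41. Leukocyte markers summed to 401, 273 and 353 CPM in HC against 750 and 453 CPM in HC control, all 6 above 0, with 5 of 6 lower at that level. Stomach and gut markers, 9 in all with Cdx2 at 0 in HC 2 and HC control 1, made up 0.909%, 0.933% and 0.916% of counts in HC against 0.370% and 0.227%, led by Gkn1 or Tff2. The part of other tissue in these differences was not tested.

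**Figure D2:**
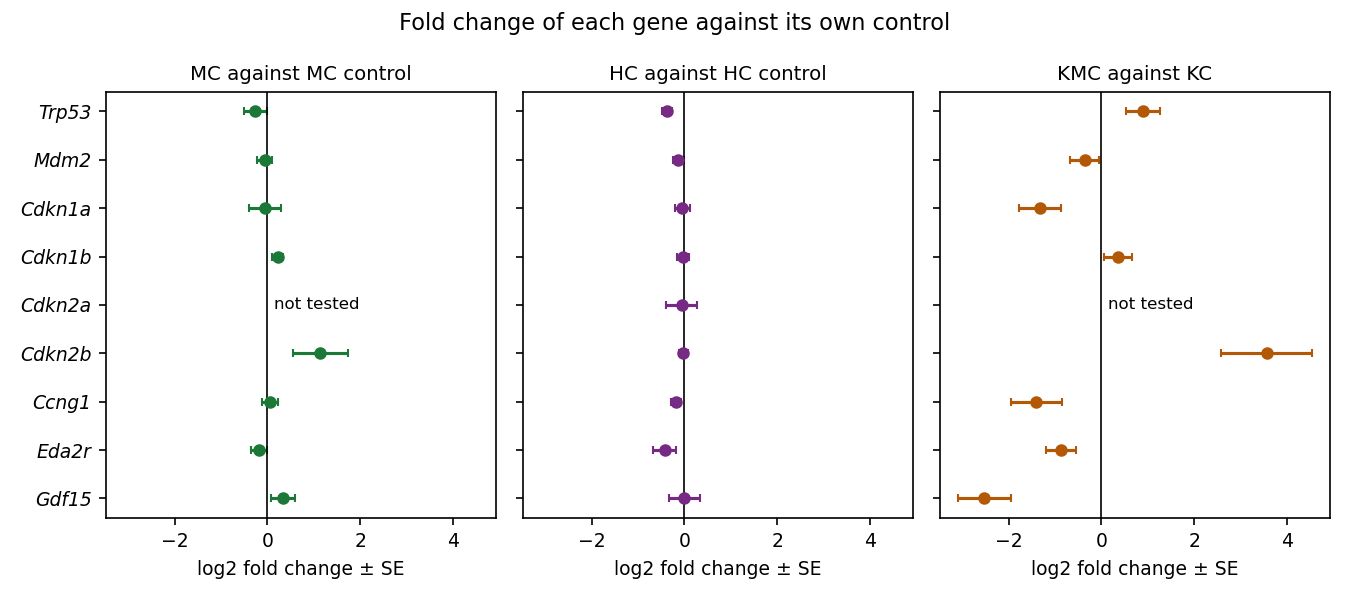
Log2 fold change of each gene in MC, HC and KMC against its own control, with points for edgeR's estimate under TMM scaling and lines for 1 standard error on each side. HC and MC sit near 0 except Cdkn2b in MC at 1.14, KMC spreads from -2.52 for Gdf15 to 3.56 for Cdkn2b, and library size alone turns Mdm2, Cdkn1a, Ccng1 and Eda2r above 0 in KMC (Mdm2 also with the housekeeping genes or without acinar genes).

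The MC contrast was set directly against the HC contrast on 14884 genes listed in both cerulein tables. The MC effect minus the HC effect was 0.10 ± 0.30 (log2, SE) for Trp53, 0.07 ± 0.21 for Mdm2, -0.01 ± 0.45 for Cdkn1a and 0.24 ± 0.17 for Cdkn1b. For the INK4 locus it was 1.05 ± 0.67 for Cdkn2a and 1.14 ± 0.57 for Cdkn2b, the smallest edgeR adjusted p among the 9 being 0.288 for Cdkn2b. None of the 9 was called, against 2.18% of all genes, 0 of 9 reached an unadjusted p under 0.05, against 20.8%, and DESeq2 also called 0 of 9. At an unadjusted p under 0.05 there was 1 of 9 with library size alone, without acinar genes in the library size, and without MC control 2, MC 1 or HC control 1. None of the 9 was called under any of these settings.

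On the tumour-prone background shared by both groups, none of the 8 genes tested passed edgeR's test between KMC and KC. The groups did not overlap in any of the 8, nor in 65.3% of all genes. Trp53 measured 14.8 and 24.8 CPM in KMC and 9.46 and 11.8 CPM in KC. Both KMC libraries lay above both KC libraries, and the log2 fold change was 0.90 ± 0.37 (SE, n = 2 against 2) with an edgeR adjusted p of 0.183. Under all 4 other scalings it stayed positive, and library size alone gave 2.41. It was 0.49 without KMC 2. Mdm2 measured 20.7 and 23.2 CPM in KMC and 27.2 and 29.4 CPM in KC, below KC in both libraries at -0.37 ± 0.31, but 1.09 with library size alone, 0.26 without acinar genes in the library size and 0.18 with the housekeeping genes.

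Cdkn1a (ENSMUSG00000023067, chr17:29090976-29100727) measured 36.2 and 45.1 CPM in KMC against 135 and 69.1 CPM in KC. The groups did not overlap, although KC 1 was far above KC 2. The fold change was -1.32 ± 0.45, a level 2.50-fold lower, with an edgeR adjusted p of 0.142, and it turned to 0.27 with library size alone. Cdkn1b measured 22.7 and 21.6 CPM against 15.5 and 19.0 CPM, at 0.36 ± 0.31 with an edgeR adjusted p of 0.477. With library size alone Cdkn1b was 1.77 and was called, as were Trp53 and Cdkn2b.

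The INK4 genes were at very low levels in KC. Cdkn2b had 70 and 1205 counts in KMC 1 and KMC 2 against 7 and 22 in KC 1 and KC 2, or 1.72 and 14.4 CPM against 0.477 and 0.851 CPM. Both KMC libraries were above both KC libraries, but KMC 2 stood apart from KMC 1. The log2 fold change of 3.56 ± 0.98, or 11.8-fold, had an edgeR adjusted p of 0.107. It was 1.35 without KMC 2 and 4.37 without KMC 1, and positive under every scaling. edgeR called Cdkn2b with library size alone, without acinar genes in the library size, with the housekeeping genes and with replicate numbers blocked. It was also called in 1 fit over the 9 libraries of the HC and KMC tables and by DESeq2, but not with DESeq2's factors in edgeR. Cdkn2a had 8 and 167 counts in KMC against 0 and 5 in KC, that is 0.197 and 1.99 CPM against 0 (at most 0.204 CPM at the floor) and 0.194 CPM. KMC 1 and KC 2 were alike, so the difference lay in KMC 2, and the gene did not pass the filter on low counts.

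The 3 remaining targets had KMC below KC in both libraries with TMM scaling, though edgeR's main fit called none of them. Gdf15 was called with replicate numbers blocked. Gdf15 and Ccng1 were called in 1 fit over the 9 libraries of the HC and KMC tables. Gdf15 (chr8:70629393-70632456) measured 3.15 and 1.17 CPM against 8.71 and 15.8 CPM. Its log2 fold change was -2.52 ± 0.57, a level 5.75-fold lower, with an edgeR adjusted p of 0.0825. Leaving out KMC 1 gave -3.41 (called) and leaving out KMC 2 gave -1.95, and the fold change was negative under all 5 scalings, at -1.33 with library size alone. Ccng1 measured 117 and 71.6 CPM against 331 and 169 CPM, at -1.40 ± 0.55 with an edgeR adjusted p of 0.172, and 0.06 with library size alone. Eda2r, on the X chromosome (chrX:97333840-97377216), measured 9.02 and 6.81 CPM against 14.4 CPM in each KC library, at -0.86 ± 0.32 with an edgeR adjusted p of 0.162, and 0.53 with library size alone. Without KC 1, the library highest in both, Ccng1 was -0.85 and Cdkn1a -0.78. Library size alone moved the median of all genes from 0.03 to 1.47, so these changes of sign came with a shift of all genes.

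Of the 8 members tested, edgeR called 0, against 0.0191% of 15733 genes, the 3 genes called being Xist, Ddx3y and Kdm5d, all sex-linked and named after their values were seen. DESeq2 called 4 of 9 (Cdkn1a, Cdkn2b, Ccng1 and Gdf15) against 13.8% of genes. At an unadjusted p under 0.05 there were 6 of 8, against 25.6% of genes: Trp53 and Cdkn2b were higher, against 16.1% of genes, and Cdkn1a, Ccng1, Eda2r and Gdf15 lower, against 9.48%. All 8 had groups that did not overlap, where 65.3% of all genes did the same and 33.3% of random splits of 2 against 2 would. edgeR's count for all genes ranged from 0 without KC 1 or KC 2 to 76 without KMC 2 and 2312 without KMC 1, and 3 members were called in the last case (Cdkn2a, Cdkn2b and Gdf15).

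**Figure D3:**
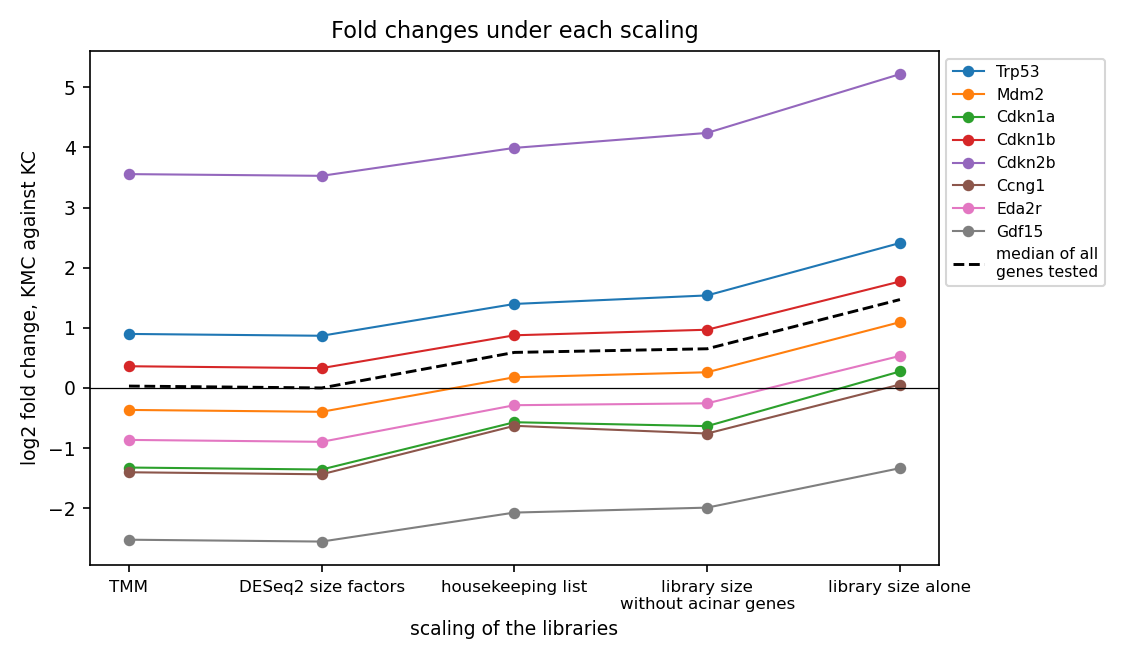
Log2 fold change of 8 genes between KMC and KC under 5 ways of scaling the libraries, with a point for each gene and scaling, lines joining the points of a gene and a dashed line for the median of all genes tested. Cdkn2b was highest (3.53 to 5.22) and Gdf15 lowest (-2.56 to -1.33) of the 8 under all 5, while Mdm2, Cdkn1a, Ccng1 and Eda2r lay above 0 with library size alone, and Mdm2 also with the housekeeping genes and without acinar genes, the median of all genes being 1.47 with library size alone.

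The tissue of these 4 libraries differed in its make-up along with the members. Acinar markers took 48.4% and 24.5% of counts in KMC and 68.2% and 59.7% in KC, and 27 of 28 had a fold change below 0 with TMM scaling. All 6 leukocyte markers were above 0 and summed to 177 and 424 CPM in KMC against 31.3 and 54.4 CPM in KC, and all 10 fibroblast markers, led by Col3a1, to 2240 and 6623 CPM against 444 and 918 CPM. KMC 2, the library with the most Cdkn2b, Cdkn2a and Trp53 and the least Gdf15, Ccng1 and Eda2r, had the lowest acinar share and the highest leukocyte and fibroblast sums of the 4. The part of these cell types in the members' differences was not tested.

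Other genes of the pathway did not follow one direction in KMC, where 25.6% of all genes reached an unadjusted p under 0.05. Of 21 p53 targets for arrest and repair 3 were lower at that level, including Sesn2, a stress-induced sestrin, at -1.30 and Dcxr at -1.24, while Gadd45a, a growth arrest gene, was higher at 2.95 (4.59 ± 3.89 CPM in KMC, SD, n = 2). Of 11 cell death targets 2 were higher, Pmaip1 (Noxa) at 3.8 (8.18 ± 6.91 CPM in KMC) and Apaf1, the apoptosome scaffold, at 1.59, and 3 lower, with Perp at -1.54. The list medians of -0.29 and -0.59 became 1.31 and 0.98 with library size alone, where Sesn2 stood at 0.09 and Dcxr at 0.22, below the median of all genes. Of 10 p53 regulators tested 1 was lower, Rchy1, a ubiquitin ligase for p53, at -1.33, and it too turned, to 0.12. DESeq2 called 2 lower and 1 higher of the arrest and repair targets, 1 lower and 2 higher of the cell death targets and 1 lower of the regulators.

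The integrated stress response, the ATF4 programme that also raises Gdf15, was the pathway list with the most genes lower at an unadjusted p under 0.05 in KMC. All 8 had fold changes below 0, and 6 of 8 reached that level. With TMM scaling edgeR called 0 of them, and DESeq2 called 6 lower. They included Fgf21, another stress-induced hormone, at -3.94 ± 0.78 (edgeR adjusted p = 0.0796), Chac1 at -2.92 and Trib3 at -2.20. With library size alone edgeR called Fgf21 (-2.79, adjusted p = 0.0134) and Chac1 (-1.77, adjusted p = 0.04998). Both were also called without acinar genes in the library size and with the housekeeping genes. Trib3 was not called under any of these. The list median was -1.65 with TMM and -0.28 with library size alone, where 2 of 8 were above 0. Acinar markers, 27 of 28 below 0 with TMM, had medians of -1.99 and -0.69 under the same scalings. Their part in the stress response genes was not tested. Of 4 listed genes of ectodysplasin and Gdf15 signalling 2 were tested. Eda, which encodes the ligand family of Eda2r, was lower at -1.64. Edaradd, listed for ectodysplasin signalling and not as a partner of Eda2r, was at -1.06. With library size alone Eda and Edaradd were -0.23 and 0.13.

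Cell cycle lists in KMC held few genes at an unadjusted p under 0.05. Of 15 proliferation genes 2 were higher at that level (Aurkb at 1.38 and Bub1 at 1.5), with 13 of 15 above 0 and a list median of 0.53 beside 0.03 for all genes, of 11 G1 genes 1 was higher (Ccnd1 at 1.45), of 8 E2F factors 1 was (E2f8 at 1.42), and of 11 turnover genes Skp2, which targets p27, was higher at 1.35. The 4 other CDK inhibitors gave 0 at that level and the 7 INK4 regulators 1, Ets1 at 0.99. All of these named genes stayed above 0 under each scaling.

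Across the 15 libraries, with the mean of each table removed, the 3 genes whose levels ran most like each member except Cdkn2a were taken from the 13655 genes tested in every comparison. Cdkn2a, not tested in MC or KMC, was left out. Bax, which permeabilises mitochondria in apoptosis, had the highest correlation with Cdkn1a (Pearson r = 0.946 of log2 CPM), followed by Ubb at 0.848 and Rps19bp1 at 0.841. For Eda2r the 3 highest were Zmat3 at 0.954, Inka2 at 0.927 and Bbc3 (Puma, an apoptosis activator) at 0.884, and for Mdm2 they were Thg1l at 0.815, Gtse1, which binds p53, at 0.804 and Cdkn1a at 0.800. Ccng1 ran with genes of another kind, Csnk2a1 (a kinase subunit), Dnajb11 and Fkbp2 (both of the endoplasmic reticulum), at 0.965, 0.958 and 0.956. Trp53 was closest to Slc39a6 at 0.960, Cdkn2b to B9d2 at 0.982, Cdkn1b to Lat at 0.937 and Gdf15 to Cox18 at 0.902. Among the members other than Cdkn2a, the highest pairs were Mdm2 and Cdkn1a at 0.800, Trp53 and Cdkn2b at 0.745, Mdm2 and Eda2r at 0.697 and Cdkn1a and Eda2r at 0.684, while Trp53 and Ccng1 had -0.761 and Cdkn2b and Ccng1 -0.797. These values describe the 15 libraries only. The points share groups, table and scaling, and the 4 KC and KMC libraries spread most.

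In the annotation (GENCODE M21, GRCm38) all 9 genes were protein coding, with 1172 exonic bases for Cdkn2a to 5891 for Eda2r. For 8 of them no other gene overlapped, and Cdkn1a shared 273 exonic bases with AC167363.2, a provisional gene model on the opposite strand that no table lists. RefSeq promoter windows (GRCm38.p6, 250 bases before to 50 after a gene's start) matched all 9 genes with 12 windows. The 20-base p53 element, a tandem pair of half-sites sought on both strands with its core C and G bases kept and up to 2 other mismatches, was found in 107 of 32851 windows (0.326%), and in 2 of the 12, the upstream window of Cdkn1a and that of Ccng1. An exact single half-site was in 8.36% of all windows and in 4 of the 12, those of Cdkn1a, Ccng1, Mdm2 and Trp53. Besides these, 3 general promoter motifs were sought on both strands. The GC box GGGCGG was in 35.7% of all windows and in 7 of the 12, and the cAMP response element TGACGTCA in 1.79% and in 1 (Cdkn2b). The letters of the TATA box, TATAAA, were in 13.6% and in 2 (Trp53 and Eda2r), with no position required. The Trp53 match was on the opposite strand, read as TTTATA at bases 3 to 8 of its window. That of Eda2r lay at bases 193 to 198. The windows printed are those of Cdkn1a and Ccng1, both lower in KMC with TMM scaling (not with library size alone), of Mdm2, which ran with Cdkn1a, and of Cdkn2b. They read 5′ to 3′ on the gene's strand, with capitals for the p53 element in Cdkn1a (chr17:29090729-29091028, plus strand) and Ccng1 (chr11:40755237-40755536, minus strand), for the half-site in Mdm2 (chr10:117710709-117711008, minus strand) and for the cAMP response element in Cdkn2b (chr4:89310983-89311282, minus strand).
Cdkn1a: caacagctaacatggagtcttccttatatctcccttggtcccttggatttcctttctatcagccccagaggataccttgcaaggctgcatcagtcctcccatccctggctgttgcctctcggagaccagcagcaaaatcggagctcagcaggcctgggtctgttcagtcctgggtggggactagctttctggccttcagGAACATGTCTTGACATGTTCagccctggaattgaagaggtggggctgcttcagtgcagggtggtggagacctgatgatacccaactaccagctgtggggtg
Ccng1: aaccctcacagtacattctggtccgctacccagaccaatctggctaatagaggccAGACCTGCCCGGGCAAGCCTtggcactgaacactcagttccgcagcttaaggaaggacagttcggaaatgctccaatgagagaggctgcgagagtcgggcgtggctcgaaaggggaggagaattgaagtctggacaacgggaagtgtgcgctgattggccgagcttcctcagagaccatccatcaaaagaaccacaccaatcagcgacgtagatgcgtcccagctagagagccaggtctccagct
Mdm2: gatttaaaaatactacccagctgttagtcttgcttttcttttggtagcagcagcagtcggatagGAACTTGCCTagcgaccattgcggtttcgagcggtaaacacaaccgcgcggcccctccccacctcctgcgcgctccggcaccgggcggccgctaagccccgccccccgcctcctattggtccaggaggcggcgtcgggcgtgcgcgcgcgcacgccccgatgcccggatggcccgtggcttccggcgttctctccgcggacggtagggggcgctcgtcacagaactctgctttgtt
Cdkn2b: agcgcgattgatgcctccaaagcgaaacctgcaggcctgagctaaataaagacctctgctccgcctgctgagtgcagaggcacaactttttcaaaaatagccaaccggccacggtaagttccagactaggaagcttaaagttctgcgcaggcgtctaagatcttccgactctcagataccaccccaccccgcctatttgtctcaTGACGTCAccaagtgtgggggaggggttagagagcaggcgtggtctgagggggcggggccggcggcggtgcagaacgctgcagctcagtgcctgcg
The element in Cdkn1a and that in Ccng1 each had 1 mismatch. Of the 9 genes most like Cdkn1a, Eda2r or Mdm2, 8 had a window and 2 held the element (Cdkn1a itself and Gtse1), as did 0 of 16 arrest and repair targets and 0 of 8 cell death targets with a window. A match is a description of letters, and p53 binding was not measured.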

How the data were processed

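The counts are the raw counts deposited by the authors in 3 tables, made with bcl2fastq 2.17.14, STAR 2.6.1a and HTSeq 0.6.1 on mm10 (the strand setting and the version of the authors' DESeq2 are not given). A further deposited table with fold changes and p values for 1 comparison was not used. By the labels, the MC table was made with a standard Illumina protocol. They give the other libraries as made from 100 ng of Trizol RNA with the KAPA Stranded mRNA-Seq Kit. The study's methods name another RNA isolation and library protocol for all samples. Gene identifiers matched the name table for 15164 of 15175 genes in the MC table and 49326 of 49585 in each of the others.

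Each table was processed alone with edgeR 4.0.16 in R 4.3.3: filterByExpr for low counts, TMM scaling, a quasi-likelihood F test and Benjamini-Hochberg adjustment. A gene was called at an adjusted p of at most 0.05 and a log2 fold change of at least 1 in size. The prior count was 2. DESeq2 1.42.0 was run beside it. The difference of the MC and HC effects was tested in 1 model on the genes listed in both tables. The code was tested on simulated data before use.

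The alternatives were DESeq2, edgeR's newer dispersion method, scaling by DESeq2's factors, by total counts, by totals that leave out the acinar genes (called library size without acinar genes) or by 15 housekeeping genes, no filter, a filter at 1 CPM, a replicate block, the adjusted p alone, each library left out, and 1 fit over the 9 libraries of the other tables. The floor of 3 counts covers counting error only. Libraries within a group differed by more than that, with a chi-square per gene of 42.3 to 547. The 9 members and the gene lists were chosen with earlier results of these data known. From each list the genes with the smallest unadjusted p in each comparison are named, up to 3. Correlations used log2 CPM with each table's mean removed. All 5 promoter motifs that were sought are reported.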

Additional observations from a re-analysis of the deposited data

Results flagged for a closer look

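Trp53 was singled out because every KMC library lay above its KC controls while every HC library lay below its own. Groups without overlap were common, at 65.3% of all genes in KMC against KC and 33.5% in HC against HC control. The KMC effect minus the HC effect was 1.27 on the log2 scale. The difference was not tested, and the contrasts carry different transgenes, ages, backgrounds and count tables. Cerulein is named for the HC contrast only, and KMC and KC also differ in sex.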

How the results depend on the processing

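With 2 or 3 libraries in a group, a library left alone in its group is assumed to vary like the others, and Cdkn2a in MC, KC and KMC 1 and Cdkn2b in KC had too few counts for more than a rough level. Of the fold changes of the members tested (8 in MC and KMC, 9 in HC), 110 in MC, 121 in HC and 89 in KMC kept their direction and their side of the threshold over the alternatives, 17 in KMC passed the threshold in the same direction, and 10, 14 and 6 changed sign. The cause was not tested.

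Genes called in MC, 0 with edgeR (2038 at an unadjusted p under 0.05), were 475 with DESeq2, 1 with library size alone, 2 with the housekeeping genes and 0 to 718 with 1 library left out. In HC the 104 became 482 with DESeq2, 51 without acinar genes in the library size, 395 with no filter, 1 in the fit over 9 libraries and 0 to 379 with 1 library left out. In KMC the 3 became 2130 with DESeq2, 4714 with library size alone, 1920 without acinar genes, 871 with the housekeeping genes, 9 with no filter, 3230 in the fit over 9 libraries and 0 to 2312 with 1 library left out. Members called in KMC, 0 with edgeR (6 at an unadjusted p under 0.05), were 4 with DESeq2, 3 with library size alone, 1 without acinar genes, 1 with the housekeeping genes, 4 in the fit over 9 libraries and 0 to 3 with 1 library left out. Members called were 0 under every alternative in MC, in HC and for the difference of the MC and HC effects.

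Library size alone changed the sign in MC of Trp53 (0.0409), Mdm2 (0.226), Cdkn1a (0.168) and Eda2r (0.0934), and in KMC of Mdm2 (1.09), Cdkn1a (0.275), Ccng1 (0.0568) and Eda2r (0.533). Mdm2 also changed sign without acinar genes in MC (0.00992) and KMC (0.261) and with the housekeeping genes in KMC (0.178). With 1 library left out, the log2 fold changes that crossed 0 ran in MC from -0.182 to 0.0734 for Mdm2, -0.364 to 0.328 for Cdkn1a and -0.0823 to 0.145 for Ccng1. In HC they ran from -0.283 to 0.0264 for Mdm2, -0.164 to 0.0610 for Cdkn1a, -0.147 to 0.0563 for Cdkn1b, -0.496 to 0.565 for Cdkn2a, -0.108 to 0.0566 for Cdkn2b and -0.290 to 0.152 for Gdf15.

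The replicate block, which pairs libraries by number, gave 0 genes called in MC, 339 in HC and 2464 in KMC, with 2 members called in KMC (Cdkn2b at 3.19 and Gdf15 at -2.62). Within that replicate block Cdkn1a was 0.0712 in MC, and Cdkn1a 0.0768, Cdkn2a 0.00972, Cdkn2b 0.00753 and Gdf15 0.139 in HC. Libraries with the same number correlated at 0.0762, 0.313 and -0.347 in MC, 0.214 and 0.202 in HC and 0.101 in KMC. In groups of 2 the values for same and other numbers mirror each other, so they do not settle whether the numbers pair libraries, and the block was kept as an alternative only.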
